A study of Mus musculus with 8 samples.

Results

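The mRNAs of 10 Polycomb repressive complex subunits were followed in mouse oocytes that lack the deadenylases CNOT7 and CNOT8. The subunits were chosen by name, as Ezh1, Ezh2, Eed, Suz12, Jarid2, Ring1, Rnf2, Pcgf1, Pcgf6 and Cbx2, and all 10 were found among the 46078 genes of the count table. All 10 passed the filter on low counts, which left 19241 genes for testing. CNOT7 and CNOT8 are the paralogous catalytic subunits of the CCR4-NOT complex, which shortens the poly(A) tails of mRNAs, and the comparison asks how the oocyte mRNA pool differs without them. RNA-seq libraries were made from fully grown germinal vesicle (GV) stage oocytes, the prophase-arrested stage before maturation, with 4 libraries per group and 100 oocytes in each library. The CNOT7&8 KO oocytes came from mice with floxed alleles of both Cnot7 and Cnot8 and the Zp3-Cre transgene, in which the promoter of a zona pellucida gene drives Cre in growing oocytes. The control oocytes came from Zp3-Cre mice, so both groups carried the transgene. Females were 4 weeks old on a C57BL/6J background and received 5 IU of PMSG, a gonadotropin, 48 h before collection. The number of animals behind each library is not given in the labels, so p-values measure the spread between these libraries only.

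Polycomb proteins repress genes on chromatin as the complexes PRC1 and PRC2. PRC2, built on EED and SUZ12 with EZH1 or EZH2 as the methyltransferase, places H3K27me3 on histone H3. PRC1, built on the E3 ligases RING1 or RNF2 with a PCGF protein, monoubiquitinates histone H2A, and CBX proteins tether its canonical form to H3K27me3. In growing oocytes both complexes are known for silencing developmental genes and for marks that pass to the embryo.

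Control libraries held 14943671 to 44092144 counts in total and KO libraries 8639444 to 26784110. Levels are normalized CPM, which is CPM computed on a library size scaled by TMM, and 3 counts corresponded to 0.0802 to 0.326 normalized CPM, a floor that covers counting error only. Cnot8 was at 35.2 ± 1.40 normalized CPM in KO against 168 ± 20.01 in control libraries (SD, n = 4), and Cnot7 at 719 ± 70.8 against 933 ± 77.3, with counts taken over the whole gene, so that exons outside a deleted part are included. All 12 oocyte markers were detected in every library, and their summed level was 21954 to 25781 in control and 18135 to 20878 in KO libraries. Granulosa and cumulus markers summed to 312 to 411 in control and 395 to 477 normalized CPM in KO libraries, with 8 to 11 of 12 above the floor of 3 counts per control library and 9 to 11 per KO library. Of the 11 tested, Fshr, Kitl, Inhba, Nr5a2 and Gja1 were DEGs higher in KO, against 23.8% of all tested genes. Kitl rose from 16.01 to 43.4, Nr5a2 from 56.6 to 122 and Gja1 from 7.85 to 32.5 normalized CPM. Fshr rose from 1.29 to 3.87 and Inhba from 2.50 to 5.50. Cyp19a1 was lower (24.1% of all tested genes were lower at adjusted p), from 58.5 to 31.3, and 5 did not pass. Of these 5, Serpine2 was at 193 in control and 189 in KO libraries (edgeR adjusted p = 0.827), a large part of each sum. The genes are named here after their values were seen. Foxl2, a defining granulosa marker, had at most 1 count in any library. Leukocyte markers summed to 1.04 to 2.42 in control and 3.58 to 5.37 in KO, and stromal, endothelial and blood markers to 91.7 to 118 and 76.2 to 92.1. The last sum rested mostly on Pecam1. In RPKM, which is normalized CPM per kilobase of the longest annotated transcript, Pecam1 averaged 27.95 in control and 23.9 in KO libraries. The next highest of these genes were Kdr at 0.707 in control and Dcn at 0.299 in KO libraries. The hemoglobin genes Hbb-bs and Hba-a1 were at 0 throughout. The part of granulosa, leukocyte, stromal, endothelial and blood cells in the results below was not tested. In pooled oocytes, fewer oocytes that hold a transcript and less of it in each cannot be told apart, and every value is relative to the sequenced RNA of its library.

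Of the 10 subunits, Jarid2 and Ring1 were higher and Ezh2 and Pcgf1 were lower in CNOT7&8 KO oocytes at an adjusted p of at most 0.05 in edgeR's quasi-likelihood test. Over all tested genes 31.2% were higher and 24.1% lower by the same rule, so 2 of 10 in each direction is near the background. With the added requirement of a 2-fold change, which defines a DEG, only Ring1 remained, as 1 DEG that was higher and 0 that were lower, against 23.8% and 6.56% of all tested genes. The count of lower DEGs among the 10 was also 0 at an unadjusted p under 0.05, with edgeR's exact test and with DESeq2. The groups did not overlap for the same 4 genes, 2 with every KO library higher and 2 with every KO library lower, against 27% and 21.4% of all tested genes. The median log2 fold change of the 10 was -0.06, against 0.12 for all tested genes. All subunits but Ring1 averaged over 10 CPM, and the 8728 tested genes that averaged 10 CPM or more had a median of -0.26, with 20.9% higher and 41.9% lower at adjusted p.

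**Figure D1:**
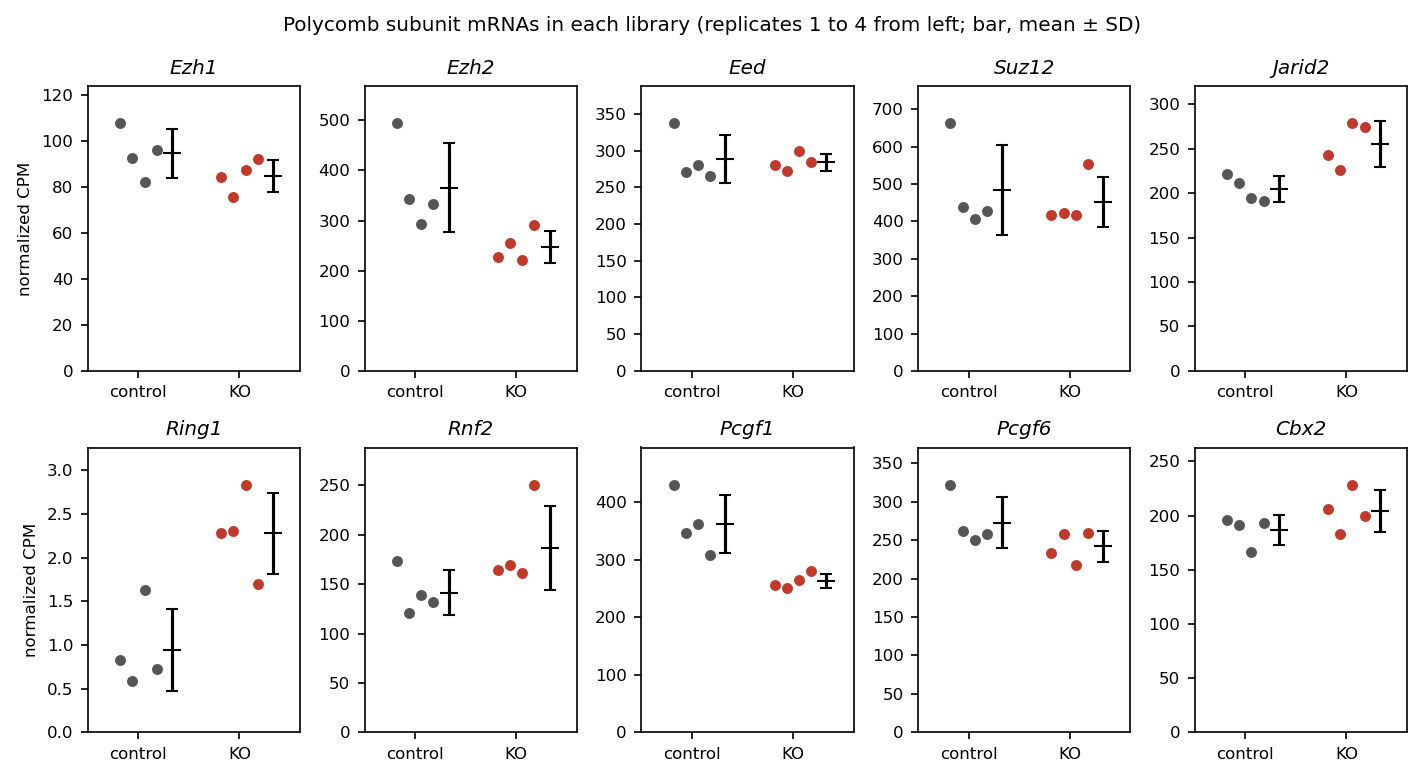
Normalized CPM (y axis, linear from 0) of each of the 10 Polycomb subunit mRNAs in the 4 control and 4 CNOT7&8 KO libraries, with points for replicates 1 to 4 from left to right and a bar for the mean ± SD. Ezh2 and Pcgf1 are lower and Jarid2 and Ring1 higher in every KO library than in any control library, and control replicate 1 is the highest control library for all subunits but Ring1.

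The 3′UTRs of 4 subunits are shown around a cytoplasmic polyadenylation element (CPE), the U-rich site bound by CPEB proteins in oocyte mRNAs, because deadenylation by CCR4-NOT and extension at CPEs act on the same tails. Each line gives 30 bases of the transcript strand from the GENCODE vM21 transcripts, 5′ to 3′ with T for U, and capitals mark the CPE letters TTTTAT.
Ezh2: ttaaaatcaactTTTTATtgccttctcacc
Ring1: aggacaaatggcTTTTATacaaagtatcta
Eed: aagctgtgttatTTTTATtgtgatggaaac
Rnf2: gaatgtatgtgtTTTTATctgtctatggga
On GRCm38 these windows lie at chr6:47530369-47530398 for Ezh2, chr17:34021240-34021269 for Ring1, chr7:89954703-89954732 for Eed and chr1:151469433-151469462 for Rnf2, each on the minus strand. TTTTAT was searched on the transcript strand alone in the longest annotated 3′UTR of each gene and was present in 7 of the 10 subunits, against 56.2% of 15113 tested protein-coding genes. Ezh1, Jarid2 and Pcgf1 held no copy, which says only that these letters are not in these UTRs. The element lay within the last 100 bases of the UTR in Eed and Rnf2, at 55 and 40 bases from the end. The last copies in Ezh2 and Ring1 were 242 and 460 bases from it, and 15.1% of the protein-coding genes held a copy in the last 100 bases. In Eed the polyadenylation signal AATAAA follows 23 bases after the element. In Rnf2 no AATAAA or ATTAAA was found near the end of the UTR, and the annotated gene runs on beyond it, to position 151458004. The AU-rich pentamer ATTTA, which can overlap a CPE, was present in 8 of the 10 against 69.8%, and the Pumilio element (PRE) in 1, Suz12, against 12%. Of the subunits that passed the test, Ezh2 and Ring1 carry a CPE, and Ezh2 fell while Ring1 rose. Jarid2 and Pcgf1 carry none, and Jarid2 rose while Pcgf1, whose searched UTR has only 98 bases, fell. These are mRNA levels, whereas the study's CPE results concern translation, and the part of the CPE in these levels was not tested.

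Among the catalytic subunits of PRC2, Ezh2 fell and Ezh1 was not separated from control. Ezh2 (ENSMUSG00000029687; GRCm38 chr6:47530139-47595341, minus strand) encodes the main H3K27 methyltransferase. It was at 494, 342, 293 and 333 normalized CPM in control replicates 1 to 4 and at 226, 254, 221 and 291 in KO replicates 1 to 4. The highest KO library was just under the lowest control library, and control replicate 1 was well above the other control libraries. The mean was 366 ± 88.3 in control and 248 ± 31.9 in KO (SD, n = 4), or 67.9% of control, a log2 fold change of -0.56 (SE 0.16, edgeR adjusted p = 0.00990). Without control replicate 1 the log2 fold change was -0.38 (edgeR adjusted p = 0.0104), and with library-size scaling alone it was -0.27 and did not pass (adjusted p = 0.119).

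Ezh1 (chr11:101191115-101226463, minus strand) encodes the paralog with weaker methyltransferase activity. It was at 108, 92.6, 82.1 and 96.3 normalized CPM in control and at 84.4, 75.6, 87.2 and 92.0 in KO libraries. The groups overlapped, with a log2 fold change of -0.16 (SE 0.12, edgeR adjusted p = 0.263) that turned to 0.13 with library-size scaling alone. Per length, on the longest annotated transcript, Ezh2 mRNA was at 131 and Ezh1 at 22.5 RPKM in control libraries, and at 89.1 and 20.2 in KO libraries. Ezh1 therefore made up 14.9% ± 1.55 of the summed Ezh1 and Ezh2 level in control and 18.6% ± 2.01 in KO libraries (SD, n = 4). These shares depend on the length used. With the union of exons, Ezh1 was at 12.7 and Ezh2 at 54.8 RPKM in control, and at 11.4 and 37.2 in KO libraries.

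The ratio of 2 genes within a library does not depend on how libraries are scaled, and 4 such ratios were compared. The count ratio of Ezh1 to Ezh2 was 0.218, 0.270, 0.280 and 0.289 in control and 0.373, 0.297, 0.394 and 0.317 in KO libraries. Every KO library was above every control library, with a 1.30-fold higher ratio in KO. The two-sided exact permutation test over 70 assignments gave p = 0.0286, the smallest it allows, and 0.0762 after Benjamini-Hochberg adjustment over the 4 ratios. The difference therefore missed the threshold after correction. With this smallest p, an adjusted p of at most 0.05 could be reached only if most of the 4 ratios had it. The miss therefore does not decide whether the ratio differs.

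The core scaffolds of PRC2 did not pass the test. Eed (chr7:89954654-89980983, minus strand), the subunit that reads H3K27me3, was at 337, 271, 281 and 266 normalized CPM in control and 280, 273, 300 and 285 in KO libraries. The KO values lay within the control range, with a log2 fold change of -0.02 (SE 0.10, edgeR adjusted p = 0.865), which became 0.26 (adjusted p = 0.0249) with library-size scaling alone and 0.23 (adjusted p = 0.0203) with TMM on genes of at least 10 CPM. Suz12 (chr11:79993106-80034123, plus strand), which holds the complex together, was at 663, 439, 406 and 428 in control and 417, 422, 416 and 553 normalized CPM in KO libraries. Control replicate 1 and KO replicate 4 stood above the rest, and the log2 fold change was -0.10 (SE 0.16, edgeR adjusted p = 0.628), or -0.02 (adjusted p = 0.825) without both libraries. The count ratio of Eed to Suz12 was 0.610 ± 0.0756 in control and 0.638 ± 0.0878 in KO (SD, n = 4; exact permutation p = 0.571, adjusted 0.571).

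Jarid2 (chr13:44729474-44921643, plus strand), which recruits PRC2 to chromatin, rose in KO oocytes. It was at 222, 211, 194 and 192 normalized CPM in control and at 243, 226, 279 and 274 in KO libraries. Every KO library was above every control library, though KO replicate 2 and control replicate 1 were close. The mean rose from 205 ± 14.3 to 255 ± 25.5 (SD, n = 4), to 125% of control, a log2 fold change of 0.32 (SE 0.11, edgeR adjusted p = 0.0230). The call was lost without control replicate 3 (edgeR adjusted p = 0.0610) or control replicate 4 (adjusted p = 0.0693), with log2 fold changes of 0.30 and 0.29.

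The ligase paralogs of PRC1 differed widely in level, and Ring1, the rare one, rose in KO oocytes. Ring1 (chr17:34020792-34024680, minus strand) was at 0.8287, 0.592, 1.63 and 0.728 normalized CPM in control and at 2.28, 2.31, 2.84 and 1.70 in KO libraries. These values rest on 31, 12, 24 and 10 counts in control and 21, 42, 46 and 50 counts in KO libraries, all above the floor of 3 counts. KO replicate 4 was only just above control replicate 3, and the other libraries of the groups were well apart. The mean rose from 0.946 ± 0.468 to 2.28 ± 0.463 (SD, n = 4), 2.41-fold, with a log2 fold change of 1.28 (SE 0.34, edgeR adjusted p = 0.00731).

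Rnf2 (chr1:151458004-151500955, minus strand), the ligase paralog also called RING1B, was at 173, 121, 139 and 132 normalized CPM in control and 165, 169, 162 and 251 in KO libraries. Control replicate 1 lay inside the KO range and KO replicate 4 far above the other KO libraries. The log2 fold change was 0.40 (SE 0.16), and the edgeR adjusted p of 0.0500194 missed the threshold narrowly. It passed with edgeR's exact test (0.40, adjusted p = 0.0442), with DESeq2 (0.42, adjusted p = 0.0367) and without control replicate 1 and KO replicate 4 (0.34, edgeR adjusted p = 0.00354), but not without KO replicate 4 alone (0.25, adjusted p = 0.0745). Per length, Rnf2 was at 44.1 RPKM and Ring1 at 0.371 in control libraries, and at 58.3 and 0.894 in KO libraries. Ring1 thus held 0.838% ± 0.413 of the summed level of both in control and 1.597% ± 0.547 in KO libraries (SD, n = 4). The count ratio of Ring1 to Rnf2 was 0.00478, 0.00491, 0.0118 and 0.00552 in control and 0.0139, 0.0136, 0.0176 and 0.00680 in KO libraries, with overlap through control replicate 3 and KO replicate 4 (exact permutation p = 0.0571, adjusted 0.0762).

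**Figure D2:**
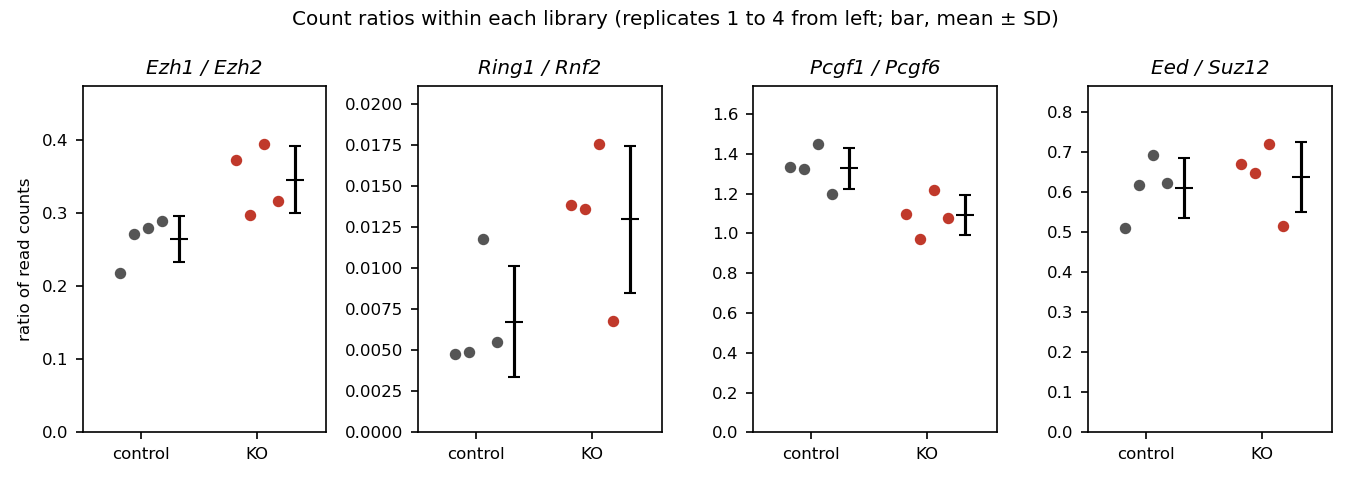
Ratios of raw read counts of 2 genes within each library (y axes, linear from 0), for Ezh1 over Ezh2, Ring1 over Rnf2, Pcgf1 over Pcgf6 and Eed over Suz12, with points for replicates 1 to 4 from left to right in control and KO and a bar for the mean ± SD. Only the Ezh1 to Ezh2 ratio has no overlap between the groups. None of the 4 passed after correction, which a single ratio without overlap could not do with this number of libraries.

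Of the PCGF proteins, which define the variants of PRC1, Pcgf1 fell and Pcgf6 overlapped between groups. Pcgf1 (chr6:83077869-83080855, plus strand), the partner of BCOR and KDM2B, was at 430, 347, 362 and 308 normalized CPM in control and 256, 250, 265 and 280 in KO libraries. The KO values were close to each other and all under the lowest control value. The mean went from 362 ± 51.0 to 263 ± 12.7 (SD, n = 4), or 72.7% of control, a log2 fold change of -0.46 (SE 0.11, edgeR adjusted p = 0.00453), which was -0.17 (adjusted p = 0.153) with library-size scaling alone. Pcgf6 (chr19:47033617-47050906, minus strand), the partner of MGA and MAX, was at 322, 262, 250 and 257 in control and 233, 257, 218 and 259 normalized CPM in KO libraries. Its log2 fold change of -0.17 (SE 0.11, edgeR adjusted p = 0.211) turned to 0.11 with library-size scaling alone. The count ratio of Pcgf1 to Pcgf6 was 1.34, 1.32, 1.45 and 1.197 in control and 1.10, 0.973, 1.22 and 1.08 in KO libraries, with only control replicate 4 below KO replicate 3 (exact permutation p = 0.0571, adjusted 0.0762).

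Cbx2 (chr11:119022962-119031270, plus strand), the chromodomain subunit that compacts chromatin in canonical PRC1, was at 196, 191, 166 and 193 normalized CPM in control and 206, 183, 228 and 200 in KO libraries. The groups overlapped through KO replicate 2, with a log2 fold change of 0.13 (SE 0.11, edgeR adjusted p = 0.318), which passed with library-size scaling alone (0.42, adjusted p = 0.00420). The scaling thus set where the line between higher and lower fell. Library-size scaling alone moved the median log2 fold change of all tested genes up by 0.29, TMM on genes of at least 10 CPM by 0.25 and upper quartile scaling by 0.10, and the share of calls that were higher in KO went from 56.4% to 74.7%, 72.6% and 62.7%. With each of the first 2, 5 subunits were higher and 0 lower, namely Eed, Jarid2, Ring1, Rnf2 and Cbx2. Ring1 and Jarid2 were called higher under all the scalings, and Ezh2 and Pcgf1 kept a negative sign under all of them.

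**Figure D3:**
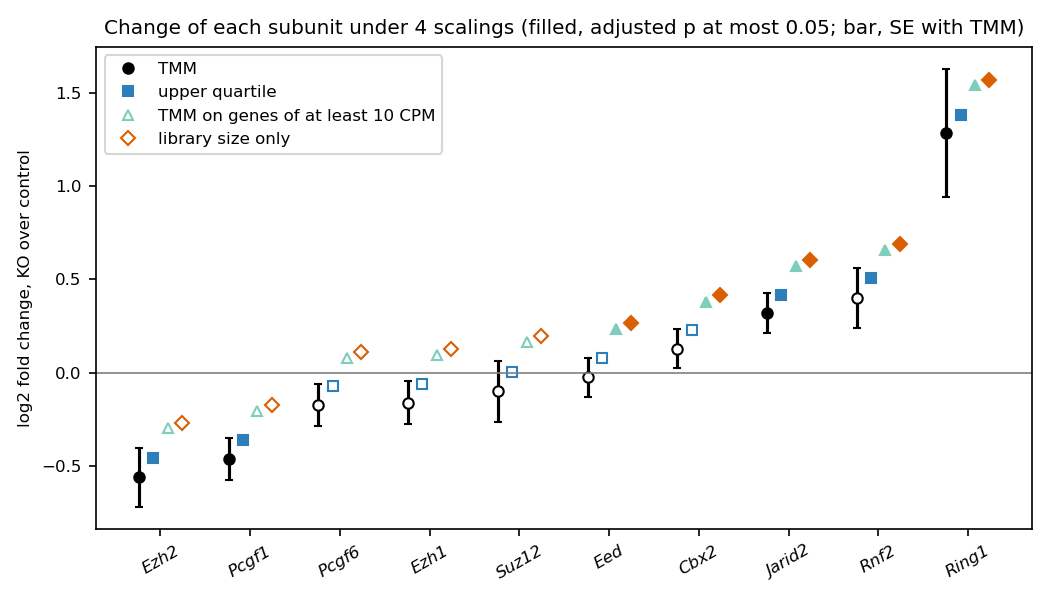
Log2 fold change of KO over control (y axis) for each subunit under 4 scalings of library size, with filled markers where the edgeR adjusted p was at most 0.05 and bars for the standard error with TMM. The order of the 10 subunits is kept while all values shift, and Pcgf6, Ezh1, Suz12 and Eed change sign with library-size scaling alone.

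Per length, Pcgf1 was the most abundant subunit mRNA in both groups and Ring1 the least. In control libraries the order was Pcgf1 at 394 RPKM, Eed at 140, Ezh2 at 131, Suz12 at 111, Pcgf6 at 96.3, Cbx2 at 49.0, Rnf2 at 44.1, Jarid2 at 24.5, Ezh1 at 22.5 and Ring1 at 0.371. The 4 values of neighbours overlapped for Eed and Ezh2, Ezh2 and Suz12, Suz12 and Pcgf6, Cbx2 and Rnf2, and Jarid2 and Ezh1, so these orders were not separated. In KO libraries the order was Pcgf1 at 286, Eed at 138, Suz12 at 103, Ezh2 at 89.1, Pcgf6 at 85.4, Rnf2 at 58.3, Cbx2 at 53.6, Jarid2 at 30.6, Ezh1 at 20.2 and Ring1 at 0.894. There Eed no longer overlapped its lower neighbour, nor did Jarid2 overlap Ezh1, whereas the run from Suz12 to Cbx2 overlapped from neighbour to neighbour. The longest Ring1 transcript of 2552 bases retains an intron, and with the union of exons as length Ring1 was at 0.292 and Pcgf1 at 219 RPKM in control libraries, while Suz12 at 97.9 stood above Eed at 75.4. In KO libraries that length put Ezh2, at 37.2 RPKM, below Pcgf6 at 48.1, Cbx2 at 47.96 and Rnf2 at 45.2, so the place of Ezh2 in the order depends on the length used.

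**Figure D4:**
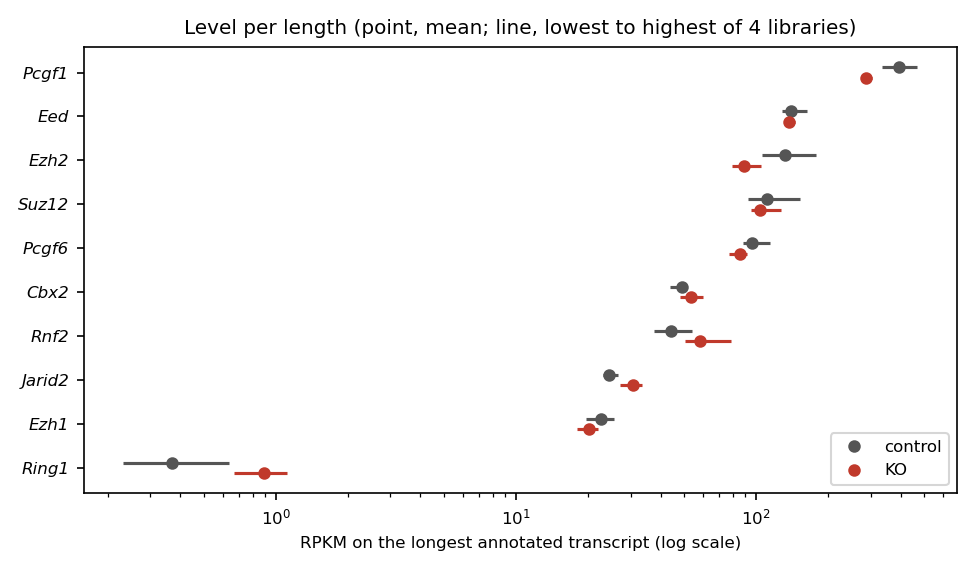
Level per length of the 10 subunit mRNAs (x axis, RPKM on the longest annotated transcript, log scale) in control and CNOT7&8 KO libraries, with points for the mean and lines from the lowest to the highest of 4 libraries. Pcgf1 lies at the top and Ring1, under 1 RPKM on average in both groups, far below the other 9.

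The pattern over the 8 libraries most like that of Ezh2, among 94 other Polycomb genes compared by the root mean square difference of centred log2 CPM, was that of Usp7, a deubiquitinase found with variant PRC1, at 0.074. The nearest to Pcgf1 was Rbbp7, a histone chaperone of PRC2, at 0.087, to Pcgf6 the casein kinase gene Csnk2a1 at 0.059, and to Eed the gene of another PCGF protein, Pcgf3, at 0.084. Usp7 was at 861 ± 164 normalized CPM in control and 555 ± 59.2 in KO (log2 fold change -0.63, edgeR adjusted p = 0.00197), and Rbbp7 at 1490 ± 206 and 997 ± 38.9 (-0.58, adjusted p = 0.000854). They were picked for this likeness, so their fall is no separate support for that of Ezh2 and Pcgf1.

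Both PRC2 accessory genes with the highest read counts, Rbbp7 and AU022751, fell. Of 9 accessory genes, 5 fell, 1 rose and 3 did not pass, with a median log2 fold change of -0.58, against 24.1% lower and 31.2% higher over all tested genes and 41.9% and 20.9% over those that averaged 10 CPM or more. AU022751, the mouse gene of the PRC2 inhibitor EZHIP, fell from 1032 ± 136 to 527 ± 84.1 normalized CPM, a log2 fold change of -0.97 (edgeR adjusted p = 9.8e-05). Phf19, a PRC2 subunit that binds H3K36me3, rose from 14.4 ± 1.85 to 29.8 ± 4.73, with a log2 fold change of 1.04 (adjusted p = 0.000144). The count of 5 that fell was the same under each of the 18 other settings tried.

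In canonical PRC1, paralogs of Cbx2 with low control levels rose. Of 11 genes 5 rose, 4 fell and 2 did not pass, with a median of 0.29, and without KO replicate 3 the count that rose was 3. Over all tested genes 31.2% were higher and 24.1% lower. Cbx7 rose from 7.27, 7.55, 4.97 and 5.83 normalized CPM in control to 59.1, 52.0, 100.0 and 84.5 in KO libraries, which is 11.5-fold and left no overlap (log2 fold change 3.52, SE 0.23, edgeR adjusted p = 3.3e-07). Cbx6 rose from 0.232 to 3.15 (log2 fold change 3.79, adjusted p = 2.3e-05), a change that rests on 1 to 9 counts per control library. Bmi1, the PCGF subunit with the highest read count of this list, went the other way, from 765 ± 81.4 to 600 ± 52.4 (-0.35, adjusted p = 0.0169), and Scml2 was at 340 ± 36.2 and 344 ± 60.6 (0.02, adjusted p = 0.913).

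In variant PRC1, 7 of 24 genes rose, 4 fell and 13 did not pass, with a median of 0.09, which is near the background of 31.2% higher and 24.1% lower over all tested genes. The DEGs with the largest changes were Cbx3, which encodes HP1 gamma, from 2.6 ± 0.817 to 12.1 ± 1.08 normalized CPM (log2 fold change 2.20, edgeR adjusted p = 8.7e-06), Pcgf5 from 7.28 ± 1.31 to 30.7 ± 2.13 (2.06, adjusted p = 1.0e-06) and Bcor from 5.92 ± 0.936 to 21.7 ± 1.35 (1.87, adjusted p = 2.1e-06). BCOR and KDM2B are partners of PCGF1, and Bcor was named here for the size of its change. Bcor rose while Pcgf1 fell, and Kdm2b did not pass (log2 fold change -0.14, edgeR adjusted p = 0.380). Wdr5, which encodes a WD-repeat subunit shared with other chromatin complexes, was at 341 ± 71.2 and 406 ± 27.2 (adjusted p = 0.132). Of 13 genes for enzymes that remove Polycomb marks and for their cofactors, 1 was higher, 2 were lower and 10 did not pass, with a median of -0.17, against the same 31.2% and 24.1%. The gene that was higher was Mbd5, which encodes a BAP1-associated cofactor and no enzyme, from 84.0 ± 11.97 to 141 ± 25.4 normalized CPM (log2 fold change 0.74, edgeR adjusted p = 0.00104), and those that were lower were the H2A deubiquitinase genes Bap1 (-0.33, adjusted p = 0.0301) and Usp16 (-0.61, adjusted p = 0.00196), named after their values were seen. The H3K27 demethylase gene Kdm6a was at 464 ± 104 and 366 ± 48.8 (adjusted p = 0.0753), and Asxl1, a cofactor of the H2A deubiquitinase BAP1, at 316 ± 80.7 and 390 ± 84.3 (adjusted p = 0.181).

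Known targets of Polycomb repression were rare in control libraries. Of 31 developmental regulators 19 passed the filter, 12 of them were higher, all as DEGs, and 1, Gata4, was lower, with a median of 1.61, against 23.8% DEGs that were higher and 24.1% of genes lower over all tested genes. A gene at the floor in control could pass only through the KO libraries, so this count does not support a direction. Where at least 1 CPM was required in 4 libraries the count was 5, but the 4 KO libraries alone can meet that filter too. Pax6 rose from 2.49 ± 0.673 to 9.44 ± 1.69 normalized CPM (log2 fold change 1.94, edgeR adjusted p = 2.4e-05) and Otx1 from 1.03 ± 0.638 to 3.40 ± 0.875 (1.61, adjusted p = 0.00317), whereas Gata4 fell from 15.3 ± 0.617 to 11.7 ± 1.26 (-0.39, adjusted p = 0.0339), a call lost under 14 of 18 other settings. Of 11 genes known for maternal H3K27me3-dependent imprinting 9 were tested, 4 rose and 3 of these were DEGs, while 0 fell at an edgeR adjusted p of at most 0.05 and 0 at an unadjusted p under 0.05, with 0 by the exact test and by DESeq2. Control means of the 3 DEGs were as low as 0.0504 normalized CPM, so the limit on genes at the floor applies to this count too, and over all tested genes 31.2% were higher and 23.8% were DEGs that were higher. Jade1 rose from 0.640 ± 0.214 to 8.18 ± 2.62 (3.59, adjusted p = 3.4e-06), Smoc1 from 0.249 ± 0.109 to 1.99 ± 0.735 (2.87, adjusted p = 0.000103) and Bbx from 17.8 ± 3.46 to 27.5 ± 4.19 (0.62, adjusted p = 0.00806). The rise of low genes went with a rise of some low granulosa and leukocyte markers. Of the 11 granulosa and cumulus markers tested, 5 were DEGs higher in KO, and of the 4 leukocyte markers tested, 2 were. Over all tested genes, 23.8% were. Amh went from 0.765 to 0.340 and Csf1r from 0.328 to 0.150 normalized CPM, and neither passed. The part of these cells in the rise was not tested.

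**Figure D5:**
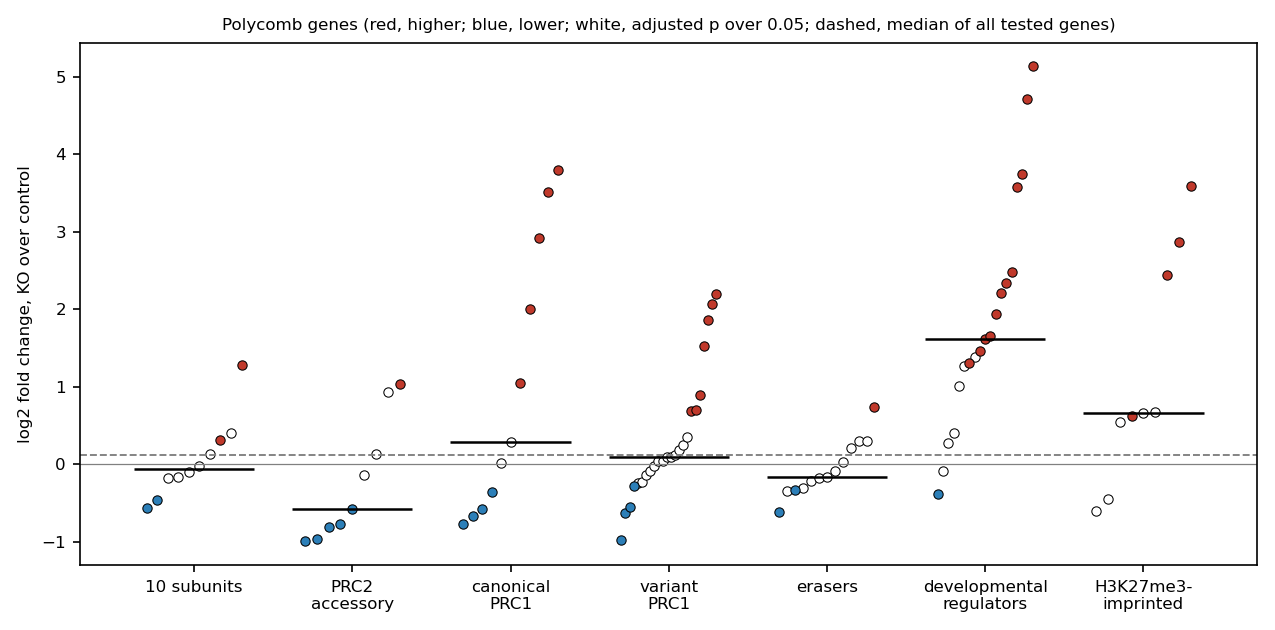
Log2 fold change of KO over control (y axis) for every tested gene of the 10 subunits and of 6 further Polycomb gene lists (x axis), with red for higher and blue for lower at an edgeR adjusted p of at most 0.05, white for not called, a bar for each list's median and a dashed line for the median of all tested genes, 0.12. The 10 subunits lie between -0.56 and 1.28, and 5 PRC2 accessory genes lie in blue between -0.99 and -0.58.

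Neighbouring genes limit some of these counts, since the strand setting of the counting is not given in the sources used here. In GENCODE vM21, Ezh2 overlaps the antisense genes Gm26625 and Gm44282, Suz12 overlaps Gm26563, Jarid2 overlaps Gm22213, Rnf2 overlaps Gm36527 on its own strand and Trmt1l on the other, and Eed overlaps Gm45120 and E230029C05Rik. Ezh1, Ring1, Pcgf1, Pcgf6 and Cbx2 overlap no other annotated gene. Of the other genes named with a change, Cbx7 overlaps Apobec3 on the other strand and Cbx6 overlaps Npcd on its own. AU022751 overlaps Gm26618, Phf19 overlaps Gm13448, Rbbp7 overlaps Txlng and Usp7 overlaps Gm25805. Pax6 overlaps Pax6os1, Jade1 overlaps Gm31266, Smoc1 overlaps Mir3067, and Pcgf5 overlaps Gm47773, Gm9042, Gm23170 and F530104D19Rik. Usp16 overlaps Cct8 on the other strand, and Inhba overlaps B230303A05Rik and Gm48444 there. Mbd5 overlaps Gm13510 and Gm13509 on its own strand and Orc4 on the other.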

How the data were processed

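Total RNA of 100 GV oocytes per library was sequenced from 4 Zp3-Cre control and 4 CNOT7&8 KO samples. Libraries were made after ribosomal RNA removal, with 11 PCR cycles and a kit that the methods call stranded mRNA and the labels stranded total RNA. The authors mapped paired reads to GRCm38 with STAR 2.6.1d in nf-core/rnaseq, and the deposited values are raw counts of reads per gene, neither normalized nor pooled. The submitters' processing notes also name edgeR 3.11. The counting tool, annotation release and strand setting are not given in the sources used here.

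Tests were run with edgeR 4.0.16 (R 4.3.3). After a filter that required 0.2 CPM in at least 2 libraries and TMM scaling, the quasi-likelihood test was fitted over all 19241 remaining genes, with Benjamini-Hochberg adjusted p-values. A DEG passed an adjusted p of 0.05 and changed by 2-fold or more. Ratios of counts within libraries were compared by two-sided exact permutation tests over 70 assignments. Gene models and 3′UTRs were those of GENCODE vM21, read with Python 3.11.15 and pandas 2.3.3. Alternatives were edgeR's exact test, DESeq2 1.42.0, other scalings and filters, the replicate number as a block, another length for RPKM and leaving out libraries. Leaving out control replicate 1 and KO replicate 4 together was chosen after seeing the data. The tests were tried on simulated counts in which 200 of 18493 genes changed by a log2 fold change of 2 up or down. The quasi-likelihood test recovered 193 with 5 false calls, the exact test 195 with 10 and DESeq2 194 with 7. Smaller changes, such as those of Ezh2, Pcgf1 and Jarid2, were not simulated, nor was a shift in scaling between groups.

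The 10 subunits and the other gene lists were chosen with earlier results of these data known. Named from each other list were the 2 tested genes with the highest mean and up to 3 DEGs with the largest change that averaged 1 CPM or more, and for 4 members the gene with the most similar pattern. Some genes that this rule names are not reported here. Depth limits low values, as 3 counts made 0.0802 to 0.326 normalized CPM. Libraries of a group all differed by more than counting noise. Proteome, polysome and poly(A) tail experiments of the study were not analysed here.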

Additional observations from a re-analysis of the deposited data

Results flagged for a closer look

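In 14 of 72 groups of 4 values, 1 library lay far from the other 3 by Dixon's gap criterion, where chance gives about 1 in 20, or 3.6. The groups come from the same libraries and the ratios reuse subunit genes, so they are not independent and 3.6 is only a guide. Of the 14, 6 were in control replicate 1, 3 in KO replicate 4 and 5 elsewhere. Suz12 was at 663 normalized CPM in control replicate 1 against 406 to 439 in the other controls, and at 553 in KO replicate 4 against 416 to 422 in the other KO libraries. Rnf2 was at 251 in KO replicate 4 against 162 to 169. Pcgf6 was at 322 in control replicate 1 against 250 to 262, and Cbx2 at 166 in control replicate 3 against 191 to 196.

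Among the other Polycomb genes, Rbbp7 was at 1796 normalized CPM in control replicate 1 against 1366 to 1432, and at 1055 in KO replicate 4 against 974 to 980. Wdr5 was at 447 in control replicate 1, Kdm6a at 619 and Otx1 at 1.98. AU022751 was at 1235 in control replicate 2 against 959 to 966, Phf19 at 17.2 in that library, and Pax6 at 3.50 in control replicate 4. The count ratio of Ring1 to Rnf2 was 0.0118 in control replicate 3 against 0.00478 to 0.00552 in the other controls. Control replicate 1 and KO replicate 4 were the deepest libraries of their groups, at 44092144 and 26784110 counts, and the part of depth in these values was not tested. Deviations of these 2 libraries from their group means were correlated at r = 0.37 across tested genes, which are not independent.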

How the results depend on the processing

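Of 615 values recomputed under other settings, 513 stayed close to the reported value, which means the same sign and side of the threshold for a test, within 1.5 times for a count and within 1 SD for a level, so that some of these counts did change. Of the rest, 7 lost a call, 15 gained it, 17 changed sign and 63 moved. Ring1 was called under all 18 alternatives tried for it, with log2 fold changes of 1.11 to 1.64. Scaling and 2 libraries moved most of the others, and the cause was not tested. Depth limits Ring1, with 10 to 50 counts per library, and the genes close to the floor of 3 counts. A count that misses the threshold does not show that a subunit is equal in both groups, and the ratio tests cannot give a p under 0.0286.

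With library-size scaling alone, log2 fold changes were 0.13 for Ezh1, -0.27 for Ezh2, 0.26 for Eed, 0.19 for Suz12, 0.69 for Rnf2, -0.17 for Pcgf1, 0.11 for Pcgf6 and 0.42 for Cbx2. With TMM on genes of at least 10 CPM they were 0.095, -0.30, 0.23, 0.17, 0.66, -0.20, 0.082 and 0.38 for the same genes. Ezh2 and Pcgf1 lost their calls under both, and Eed, Rnf2 and Cbx2 gained one. Subunits higher in KO numbered 5 and lower 0 under both. PRC2 accessory genes higher were 2 and canonical PRC1 genes lower 2 under both. Variant PRC1 genes higher were 14 with library size alone and 12 with the restricted TMM, and 2 were lower with the first. Erasers higher were 4 and 5, and erasers lower 1 under both. Developmental regulators lower were 0 under both, and also with upper quartile scaling, with no filter, with the filter of at least 1 CPM in 4 libraries, with the replicate block and without control replicate 1 and KO replicate 4 together.

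With upper quartile scaling Eed was at 0.077, Suz12 at 0.0063 and Rnf2 at 0.51, and erasers were 2 higher and 1 lower. Rnf2 passed at 0.40 with the exact test, 0.42 with DESeq2, 0.42 with RLE scaling, 0.43 with no filter and 0.47 with the stricter filter. That filter gave 0.048 for Eed, 2 erasers higher, 1 lower and 5 developmental regulators higher. Without control replicate 1 and KO replicate 4 together, Eed was at 0.060, Rnf2 passed at 0.34, and erasers were 2 higher and 4 lower. Dropping the 2-fold requirement gave 2 subunits higher and 2 lower.

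Same-numbered libraries of the groups did not deviate together (r from -0.12 to 0.11, and 1 of 8 libraries correlated best with its own number), so the numbers were not taken to pair them. With the replicate number as a block Jarid2 was at 0.32 (edgeR adjusted p = 0.0691), 1 subunit was higher, 1 eraser was lower, and DEGs over all genes were 4316 higher and 1254 lower, against 4582 and 1263 without it.

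Leaving out each library in turn, log2 fold changes ranged from -0.060 to 0.060 for Eed, -0.18 to 0.091 for Suz12, 0.29 to 0.40 for Jarid2 and 0.25 to 0.52 for Rnf2, and the log2 ratio of Eed to Suz12 from -0.021 to 0.16. The number of subunits higher ranged from 1 to 3, of canonical PRC1 genes higher from 3 to 5, of erasers from 1 to 2 in each direction, and of developmental regulators lower from 0 to 1. With the union of exons as length, control levels were 12.7 RPKM for Ezh1, 54.8 for Ezh2, 75.4 for Eed, 21.1 for Jarid2, 34.2 for Rnf2, 219 for Pcgf1, 54.3 for Pcgf6 and 43.8 for Cbx2.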
